A study of Mus musculus with 6 samples.

Results

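Expression of 8 genes of renal water handling was examined in libraries labelled as Dolichos biflorus agglutinin (DBA)-positive cells of mouse kidney: the water channel genes Aqp1, Aqp2, Aqp3, Aqp4, Aqp6 and Aqp11 and the vasopressin receptor genes Avpr2 and Avpr1a. The genes were taken by symbol from the 55367 gene symbols of the 6 FPKM tables (fragments per kilobase of exon, scaled to the depth of the library). All 8 were present, and 7 of them were among the 14862 genes that reached 1 FPKM in at least 2 libraries and were tested, with Avpr2 below that level. The libraries came from 3 groups of 2, all labelled Day115. WT mice (genotype WT) received saline, ADPKD mice (Pkd1-/-, the autosomal dominant polycystic kidney disease model) received saline, and ADPKD+MMPP mice (also Pkd1-/-) received MMPP, a PEG-containing, manganese-chelated melanin-like nanoparticle given intravenously. Pkd1 was removed in male Pkd1 fl/fl;Cre/Esr1+ mice by tamoxifen, which switched on the recombinase. The promoter that drives Cre is not given in the sources used here, so the cells in which Pkd1 was removed are not settled. The strain, and whether WT mice carried Cre or received tamoxifen, are not given in the sources used here. Nothing says that the libraries of a group came from separate mice, so the p-values measure only the spread between these libraries. The protocol in the labels names both isolated DBA-positive cells and RNA of whole kidney, so which of these the levels describe is not settled by the labels.

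Vasopressin controls how much water the collecting duct returns to the body. Its V2 receptor on principal cells, encoded by Avpr2, couples to Gs and adenylyl cyclase, and cAMP-dependent protein kinase then drives AQP2 into the apical membrane and, over hours, raises transcription of its gene, while AQP3 and AQP4 let the water leave through the basolateral side. The same cAMP pathway promotes fluid secretion and growth of cysts in polycystic kidney disease, which is why V2 receptor antagonists are used in patients. DBA lectin binds principal cells and their cysts most strongly, and the other members mark other cells: AQP1 the proximal tubule, thin descending limb and descending vasa recta, AQP11 the endoplasmic reticulum of proximal tubule cells, and AQP6 and the V1a receptor AVPR1A intercalated cells.

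The treated libraries stood apart from the other 4. Read numbers recovered from FPKM and exon length gave 10910735 and 11807385 assigned reads in the treated libraries against 30576177 to 33075512 in WT and ADPKD. Among genes with few reads, odd read numbers made up 7.67% and 8.31% in the treated libraries and 36.7% to 38.3% in the others. The change after treatment also moved with gene structure: of 1309 tested protein-coding genes with 1 annotated transcript 69.9% were called higher after treatment, against 3.54% of the 2375 genes with under 25% of their exon bases in just 1 transcript. Aqp1, Aqp2 and Avpr1a have 1 annotated transcript each. Aqp11, Aqp3 and Aqp4 have 84.3%, 81.6% and 75.8% of exon bases in just 1 transcript, and Aqp6 has 56.1%. Of the 3302 genes at 75% or more, 67.8% were called higher after treatment. The part that this difference played in the changes after treatment was not tested, and since both treated libraries carry it, it cannot be told apart from treatment. Values centred on genes of like exon share are therefore given below wherever they alter the call of a member. For other genes only the counts of the cAMP cascade, AQP2 vesicle and transcription factor lists are also given centred. The remaining list counts and single list genes are as deposited, and their calls may not hold under the centring. Pkd1 was at 17.7 and 17.2 FPKM in WT, 7.64 and 8.91 in ADPKD, and 4.34 and 3.99 in ADPKD+MMPP, lower in every Pkd1-/- library, counted over the whole gene and not over the deleted exons.

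Aqp2 was by far the most abundant member in every library. In WT, Aqp2 was followed on the FPKM scale, which is per length, by Aqp1 and Aqp3, then Aqp6, Avpr1a, Aqp4, Aqp11 and Avpr2. Of the neighbours in that order, Aqp1 (343 and 234 FPKM) and Aqp3 (235 and 319 FPKM) overlapped in WT, and the libraries of the other neighbours did not. In ADPKD, Aqp1 overlapped with Aqp3, and Aqp6 overlapped with both Aqp4 and Avpr1a. In ADPKD+MMPP no neighbours overlapped, and Aqp4 had dropped below Aqp11. Aqp2 ranked 8 and 3 among all genes in WT, 5 and 31 in ADPKD, and 4 and 4 in ADPKD+MMPP.

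**Figure D1:**
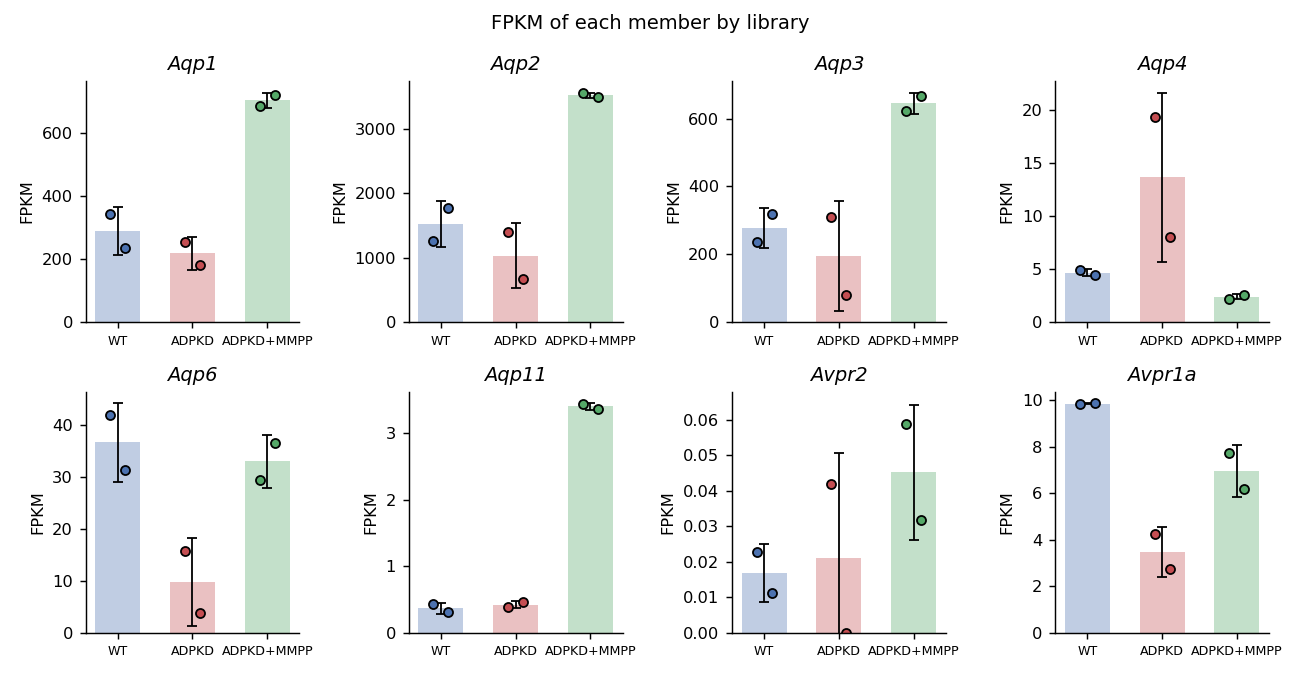
FPKM (linear axes starting at 0, 1 panel per gene) of the 8 genes in WT, ADPKD and ADPKD+MMPP; points are libraries, bars group means and error bars the SD (n = 2). Both treated libraries lie above both ADPKD libraries for Aqp1, Aqp2, Aqp3, Aqp6, Aqp11 and Avpr1a and below them for Aqp4, and Avpr2 rests on 4 reads or fewer in every library.

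In ADPKD against WT, 1 member rose (Aqp4), 2 fell (Aqp6 and Avpr1a) and 4 did not pass the test, a fold change of at least 1.5 with an unadjusted P under 0.05 in limma. Over all genes tested, 14.2% were called higher and 12.5% lower in that comparison. The libraries of both groups did not overlap for the same 3 members, 1 higher and 2 lower, where 35.5% of all genes lay higher and 31.5% lower without overlap. The median log2 fold change was -0.63 over the 7 members and 0.03 over all genes. After treatment, 6 members rose and 1 fell (Aqp4), against 27.9% of all genes called higher and 43.0% called lower. The median was 1.71 over the members and -0.36 over all genes. Of the 3302 tested protein-coding genes with 75% or more of exon bases in 1 transcript, 67.8% were called higher and 5.84% lower. That set holds every tested member except Aqp6. All 7 members lay apart without overlap, against 36.1% of all genes higher and 51.7% lower. Aqp11 passed the expression filter only through the treated group. Its calls after treatment and against WT, and its lack of overlap there, were bound to follow. For ADPKD+MMPP against WT, 3 members (Aqp1, Aqp2 and Aqp11) were higher and 4 did not pass, against 30.1% of all genes called higher and 43.8% lower. Here 4 members lay higher and 2 lower without overlap, against 38.9% and 53.0% of all genes. These comparisons share libraries: the ADPKD libraries enter both of the first 2, so a high or low ADPKD library moves them in opposite directions.

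**Figure D2:**
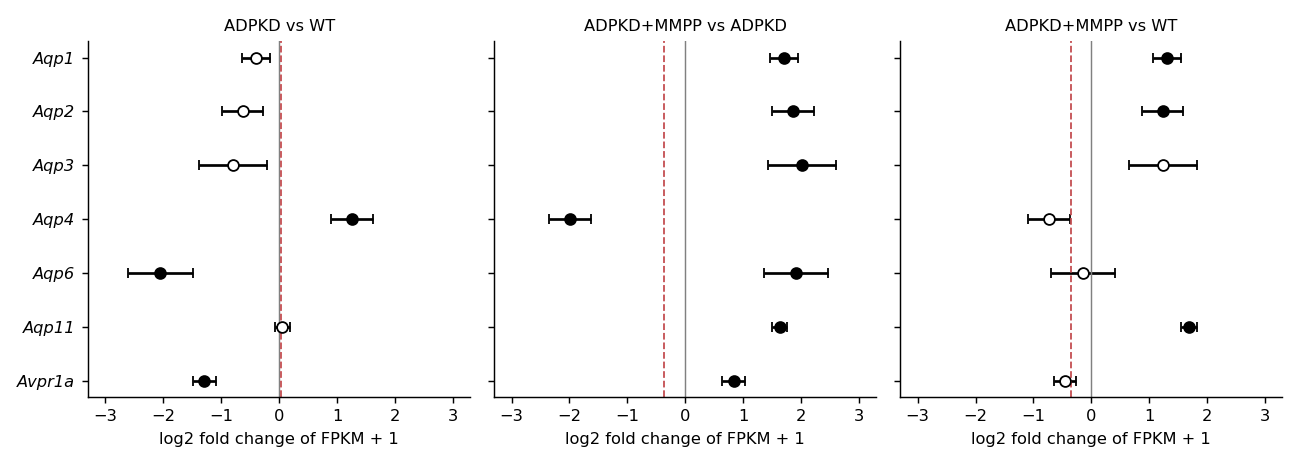
Log2 fold change of FPKM + 1 for the 7 tested genes in the 3 comparisons, with standard errors; filled points passed the test, open points did not, and the dashed line is the median of all tested genes. In ADPKD against WT the points run from -2.05 (Aqp6) to 1.26 (Aqp4), and after treatment all but Aqp4 lie above 0.

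Aqp2 (chr15:99579055-99584547, plus strand, mm10) encodes the apical channel that vasopressin moves. Its promoter is shown because the gene is a textbook target of cAMP signalling. The 250 bases before the RefSeq start (GRCm38.p6, chr15:99578806-99579055, plus strand) are printed 5′ to 3′, with capitals marking, in order, a CRE half-site (TGACG) and a GATA element (AGATAA), both read on the minus strand.
Aqp2 promoter: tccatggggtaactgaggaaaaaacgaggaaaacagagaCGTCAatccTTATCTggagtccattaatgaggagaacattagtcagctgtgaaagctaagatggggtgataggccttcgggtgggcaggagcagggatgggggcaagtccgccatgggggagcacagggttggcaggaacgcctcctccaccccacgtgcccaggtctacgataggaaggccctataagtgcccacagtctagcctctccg
The CRE half-site lay at -211 to -207 from the start and the GATA element at -202 to -197. On either strand of the windows from 250 bases before to 50 after a start, TGACG occurred in 20.8% and AGATAA in 11.2% of 32817 RefSeq promoters. The full palindrome TGACGTCA, which contains TGACG, occurred in 1.79% and in no promoter of the 7 members that had one (Aqp4 had none). Avpr1a was the only other member with TGACG, on the plus strand at -165 to -161, capitalised in the stretch at chr10:122448322-122448350 (plus strand).
Avpr1a promoter stretch: tactacacctgtTGACGcgctgcatgact
A match describes letters and is not evidence of a bound site.

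Aqp2 stood at 1267 and 1776 FPKM in WT, 1392 and 677 in ADPKD, and 3555 and 3499 in ADPKD+MMPP. The 2 ADPKD libraries differed from each other more than the WT libraries did, and 1 of them lay inside the WT range, while both treated libraries lay above all others. Aqp2 did not pass the test in ADPKD against WT (log2 fold change -0.63 ± 0.36 SE, limma adjusted p = 0.240). After treatment it rose (1.86 ± 0.36, adjusted p = 0.00398), to 3.41 times the ADPKD mean, and it was also higher than in WT (1.23 ± 0.36, adjusted p = 0.0197). In these bulk libraries, fewer cells of a type and less RNA per cell cannot be told apart. Compared with genes of like exon share, the change of Aqp2 after treatment was 0.74 (adjusted p = 0.0975), and it was -0.035 against WT, so neither call stood under that centring. The call against WT was also lost without WT replicate 1 (0.99, limma adjusted p = 0.114) or either treated library (1.22 and 1.24, adjusted p = 0.0959 and 0.0925).

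Aqp3 (chr4:41092722-41098183, minus strand), the basolateral channel for water and glycerol, stood at 235 and 319 FPKM in WT, 309 and 80.6 in ADPKD, and 623 and 668 in ADPKD+MMPP. As for Aqp2, ADPKD replicate 1 was within the WT range and replicate 2 below it, and the treated libraries did not overlap with any other. Aqp3 did not pass in ADPKD against WT (-0.79 ± 0.59, limma adjusted p = 0.359). After treatment Aqp3 rose (2.02 ± 0.59, adjusted p = 0.0210), while the difference between ADPKD+MMPP and WT did not pass (1.23 ± 0.59, adjusted p = 0.0997). The call after treatment was lost without either treated library (2.07 and 1.97, limma adjusted p = 0.0824 and 0.0934) and under the centring by exon share (1.09). The FPKM ratio of Aqp2 to Aqp3 was 5.38 and 5.56 in WT, 4.51 and 8.39 in ADPKD, and 5.71 and 5.24 after treatment, so the treated ratios overlapped with those of WT.

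Aqp4, the other basolateral water channel of principal cells, moved the other way. Aqp4 (chr18:15389496-15410982, minus strand, 11 annotated transcripts) stood at 4.92 and 4.42 FPKM in WT, 19.3 and 8.0 in ADPKD, and 2.23 and 2.59 in ADPKD+MMPP, from 164 to 3984 reads per library. Both ADPKD libraries were above both WT libraries and both treated libraries were below them, with no overlap between any groups. It rose in ADPKD (1.26 ± 0.37, limma adjusted p = 0.0534), a call on the unadjusted P alone. That call was lost without either WT library (1.32 and 1.19, limma adjusted p = 0.187 and 0.213). After treatment it fell (-1.99 ± 0.37, adjusted p = 0.00338), and the difference from WT did not pass (-0.74 ± 0.37, adjusted p = 0.111), although Aqp4 was called lower than in WT when centred by exon share (-1.39, adjusted p = 0.0103) and with a common FPKM sum (-1.03, adjusted p = 0.0403). The FPKM ratio of Aqp3 to Aqp4 was 47.8 and 72.3 in WT, 16.0 and 10.1 in ADPKD, and 280 and 258 after treatment.

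The principal cell markers went both ways after treatment. Of 9 markers, 1 was called in ADPKD (the potassium channel subunit Kcne1, -2.18), where 14.2% of all genes were called higher and 12.5% lower. After treatment 3 markers were called higher and 4 lower. The shares after treatment are near the 27.9% and 43.0% of all genes, so these counts do not set the list apart. Hsd11b2, which protects the mineralocorticoid receptor from glucocorticoids, stood at 357 and 433 FPKM in WT, 432 and 56.4 in ADPKD, and 1029 and 1064 after treatment, a library order that followed Aqp3. Apela, which encodes an apelin receptor ligand, was at 38.3 and 40.3 FPKM in WT, 63.0 and 28.8 in ADPKD, and 0.169 and 0 in the treated libraries. Npnt, an integrin ligand of the matrix, fell after treatment as well (-4.41). The summed FPKM of the 9 markers ranged from 828 to 932 in WT, from 420 to 1171 in ADPKD and from 1325 to 1360 after treatment, with ADPKD replicate 2 the lowest library, and the part of marker content in the Aqp2 and Aqp3 values was not tested.

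Aqp6 and Avpr1a, the members of intercalated cells, both fell in ADPKD. Aqp6 (chr15:99601400-99605477, plus strand), a channel of intracellular vesicles in acid-secreting cells, stood at 42.1 and 31.4 FPKM in WT, 15.8 and 3.84 in ADPKD, and 29.5 and 36.6 after treatment. Both ADPKD libraries were below all others, and the treated libraries overlapped with WT. Aqp6 fell in ADPKD (-2.05 ± 0.56, limma adjusted p = 0.0433), rose after treatment (1.91 ± 0.56, adjusted p = 0.0209), and the difference between ADPKD+MMPP and WT did not pass (-0.14 ± 0.56, adjusted p = 0.826). The fall was lost without WT replicate 1 (-1.85, limma adjusted p = 0.206) and the rise without treated replicate 2 (1.76, adjusted p = 0.103).

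Avpr1a (chr10:122448499-122453452, plus strand), which encodes a Gq-coupled receptor that raises cell calcium, stood at 9.84 and 9.87 FPKM in WT, 4.26 and 2.73 in ADPKD, and 7.74 and 6.18 after treatment. The 3 groups did not overlap, with ADPKD lowest and the treated libraries between. Avpr1a fell in ADPKD (-1.29 ± 0.20, limma adjusted p = 0.00829), to 0.355 times the WT mean. After treatment it rose (0.84 ± 0.20, adjusted p = 0.00935), and the difference from WT did not pass (-0.45 ± 0.20, adjusted p = 0.0768). Avpr1a was called lower than in WT when centred by exon share (-1.72, limma adjusted p = 0.000381) and with a common FPKM sum (-0.80, adjusted p = 0.0103). The rise was the smallest among the members called and depended on the scaling: it was 0.58 with libraries scaled to a common FPKM sum, under the fold threshold, and -0.29 against genes of like exon share.

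Most markers of intercalated cells were also lower in ADPKD than in WT. Of 10 markers, 9 were called lower in ADPKD (median log2 fold change -2.17), and 9 were called higher after treatment (median 2.27). Over all genes these shares were 12.5% and 27.9%. Slc26a4, encoding the chloride-bicarbonate exchanger pendrin, stood at 83.6 and 109 FPKM in WT, 12.4 and 2.15 in ADPKD, and 45.3 and 45.0 after treatment. Slc4a1, encoding the basolateral anion exchanger of acid-secreting cells, fell by 3.20 on the log2 scale in ADPKD and rose by 2.68 after treatment, and Foxi1, the master transcription factor of the lineage, rose by 3.14 after treatment. Slc4a9, encoding an anion exchanger of bicarbonate-secreting cells, did not rise with them: its mean was 54.2 FPKM in WT, 9.65 in ADPKD and 6.27 after treatment. The ammonia transporter gene Rhcg was the marker not called in ADPKD, with 155 and 171 FPKM in WT and 172 and 42.3 in ADPKD. The summed FPKM of the 10 markers was 462 to 501 in WT, 75.9 to 251 in ADPKD and 664 to 686 after treatment. Whether Aqp6 and Avpr1a changed by more or less than the share of intercalated cells was not tested.

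**Figure D3:**
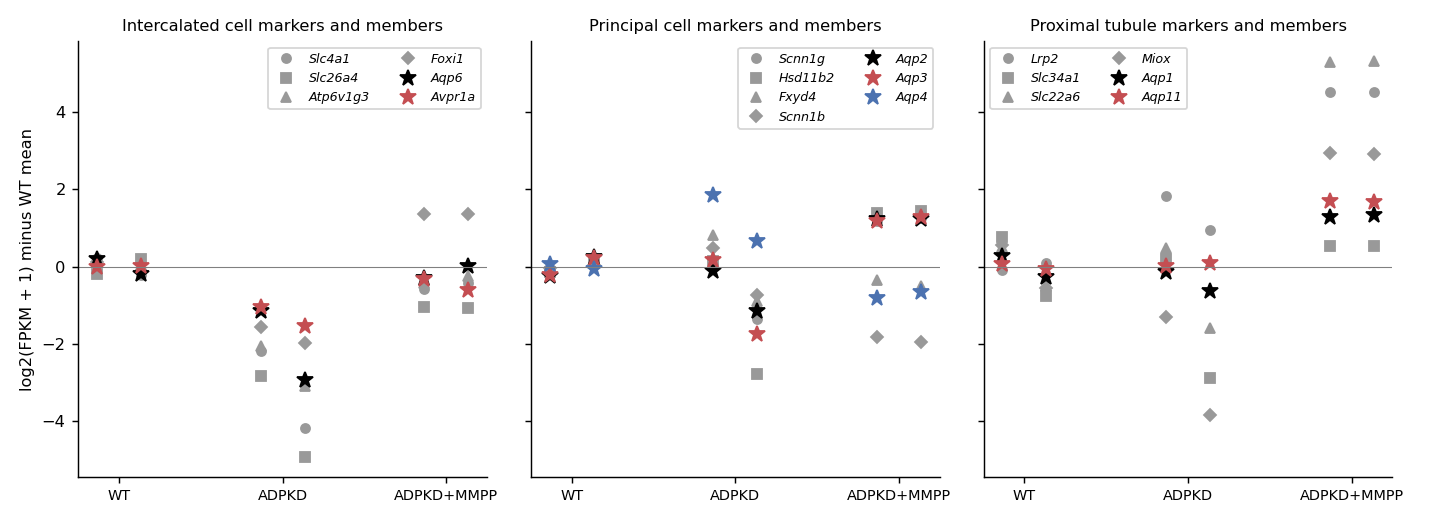
Log2(FPKM + 1) of each library minus the WT mean, for WT, ADPKD and ADPKD+MMPP replicates 1 and 2. Members are stars, and grey symbols are a part of each marker list (left, intercalated cell, middle, principal cell, right, proximal tubule). Aqp6 and Avpr1a lie below WT in both ADPKD libraries, as Slc26a4, Slc4a1, Atp6v1g3 and Foxi1 do. Some markers that are not shown went another way. Rhcg was not called in ADPKD, Slc4a9 did not rise after treatment, and Apela, Npnt and Pdzk1 fell after treatment. Lrp2, Slc22a6 and Miox lie highest in the treated libraries, and Slc34a1 lies highest in WT replicate 1.

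Aqp1 and Aqp11 are genes of the proximal tubule, a segment outside the collecting duct. Aqp1 (chr6:55336432-55348555, plus strand), the constitutive water channel of that segment, stood at 343 and 234 FPKM in WT, 255 and 181 in ADPKD, and 687 and 723 after treatment. WT and ADPKD overlapped, and both treated libraries were above both groups. Aqp1 did not pass in ADPKD against WT (-0.40 ± 0.24, limma adjusted p = 0.263). It rose after treatment (1.71 ± 0.24, adjusted p = 0.00106) and was higher than in WT (1.31 ± 0.24, adjusted p = 0.00301). Against genes of like exon share these were 0.58 (adjusted p = 0.0723) and 0.04 (adjusted p = 0.880).

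Aqp11 (chr7:97724006-97738289, minus strand), whose loss in mice gives cystic proximal tubules, stood at 0.427 and 0.312 FPKM in WT, 0.385 and 0.464 in ADPKD, and 3.44 and 3.37 after treatment, from 91 to 382 reads per library. WT and ADPKD overlapped, and the treated libraries were above both. The difference between ADPKD and WT did not pass (0.06 ± 0.13, limma adjusted p = 0.780). The change after treatment was 1.63 ± 0.13, a value that the added constant of 1 FPKM makes smaller than the 8.01 times higher mean FPKM. Aqp11 passed the expression filter only through the treated libraries, so this call was bound to follow and no p-value is given for it.

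Proximal tubule markers were mostly at low levels in WT and ADPKD, and most rose with treatment. Of 12 markers, 3 were called higher and 1 lower in ADPKD, and 9 higher and 1 lower after treatment. Over all genes 14.2% were called higher and 12.5% lower in ADPKD, and 27.9% higher and 43.0% lower after treatment. Cubn, called higher in both comparisons, passed the expression filter only with the treated libraries, which favoured its call after treatment. The median after treatment was 2.78 over the markers and -0.36 over all genes. The summed FPKM of the markers was 69.5 to 160 in WT, 48.5 to 179 in ADPKD and 1101 to 1106 after treatment. Lrp2, encoding the endocytic receptor megalin, was at 1.88 and 2.21 FPKM in WT, 9.80 and 4.86 in ADPKD, and 68.7 and 68.7 after treatment. Slc22a6, encoding the organic anion transporter OAT1, rose by 5.87 after treatment, and Miox, which encodes the enzyme that breaks down inositol, by 5.51. The brush border scaffold gene Pdzk1 fell after treatment (-1.99). The phosphate transporter gene Slc34a1 did not pass after treatment, although its libraries did not overlap: it stood at 67.5 and 22.9 FPKM in WT, 44.9 and 4.44 in ADPKD, and 57.2 and 57.8 after treatment. In WT and ADPKD, Aqp1 alone exceeded the summed FPKM of all 12 proximal markers. Aqp1 is also a gene of red cells and of some endothelial cells. The erythroid list was near 0 (summed FPKM 2.18 to 6.98 over the 6 libraries), and the 8 endothelial markers summed to 825 to 973 FPKM in WT, 573 to 593 in ADPKD and 328 to 357 after treatment, lowest in the libraries where Aqp1 was highest. The part of each cell type in the Aqp1 level was not tested.

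The V2 receptor itself was barely read. Avpr2 (chrX:73892102-73895502, plus strand) had 2 and 1 reads in WT, 4 and 0 in ADPKD, and 2 and 1 after treatment, which is 0.0227 and 0.0112, 0.0419 and 0, and 0.0587 and 0.0318 FPKM. These values lie at or near 3 reads, the limit that a count of 0 allows (0.0314 to 0.0953 FPKM by library, counting error only), so no fold was computed and no difference was detectable at this depth. Of its 2886 exon bases, 2347 (81.3%) lie in exons of Arhgap4 on the minus strand, which leaves 539 bases to Avpr2 alone. Arhgap4 had 218 and 176 reads in WT, 289 and 116 in ADPKD, and 17 and 10 after treatment. Of 334 protein-coding genes with at least 75% of exon bases in another gene, 21 (6.29%) reached 1 FPKM in any library. Of 15115 with no such base, 8373 (55.4%) did. These genes were not split by strand, and whether the overlap lowered the Avpr2 values was not tested. Over the 539 bases alone, the Avpr2 reads would give 0.121 and 0.0599 FPKM in WT and 0.224 and 0 in ADPKD. After treatment they would give 0.314 and 0.170. Whether the counting used strand is not given in the sources used here, so the Avpr2 values are uncertain and do not give the level of its mRNA.

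**Figure D4:**
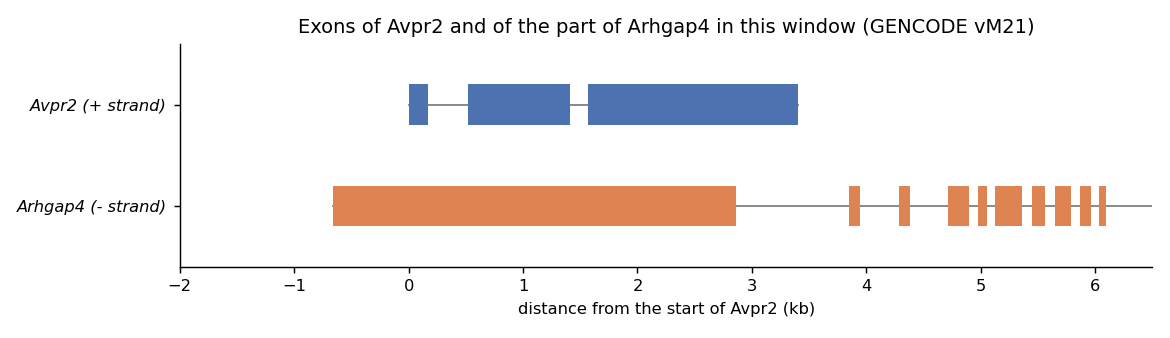
Exons of Avpr2 (top, plus strand) and of the stretch of Arhgap4 nearby (bottom, minus strand) by distance from the start of Avpr2 in kb, GENCODE vM21. Blocks are exons merged over all annotated transcripts of a gene. The merged block at the 3′ end of Arhgap4 covers most of the exons of Avpr2, leaving 539 of 2886 bases to Avpr2 alone.

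Other genes of both families were low. The 6 other aquaporin genes were all below the filter, with summed FPKM of 0.541 to 0.627 in WT, 1.08 to 3.14 in ADPKD and 0.618 to 0.748 after treatment; the highest single value was Aqp7, an aquaglyceroporin, at 2.74 FPKM in ADPKD replicate 1. Avp, Oxt, Avpr1b and Oxtr were also below the filter, and Avpr1b was at 0 in all libraries.

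Downstream of the V2 receptor, most genes of the cAMP cascade were lower after treatment. Of 11 genes, 2 were called in ADPKD, both lower: Adcy6, the main adenylyl cyclase of principal cells (-0.99), and Gnas, which encodes the Gs alpha subunit (-0.72). In that comparison 14.2% of all genes were called higher and 12.5% lower. After treatment 3 rose and 7 fell, where 27.9% of all genes rose and 43.0% fell. The median was -0.92 against -0.36 over all genes. Adcy6 stood at 64.6 and 61.3 FPKM in WT, 33.5 and 28.9 in ADPKD, and 1.12 and 1.32 after treatment, no group overlapping another. Pde4b, a cAMP phosphodiesterase, fell by 1.66 after treatment and Gnas by 1.55. This direction turned with the centring by exon share, under which 6 rose and 3 fell (median 0.69). Under that centring 4228 of 12375 genes rose and 3008 fell (median 0.16).

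Genes that carry AQP2 vesicles to and from the membrane moved both ways. Of 24, 6 rose and 3 fell in ADPKD, where 14.2% of all genes rose and 12.5% fell. Among them were the membrane fusion syntaxin Stx3 (1.38), the Rap1 GTPase-activating protein gene Sipa1 (-1.37) and the fusion ATPase Nsf (-1.29). After treatment 7 rose and 12 fell, shares of the list near the 27.9% and 43.0% of all genes, so these counts do not set the list apart. The largest falls were in Hspa8, the chaperone that uncoats clathrin vesicles (-4.03, from 361 and 357 FPKM in ADPKD to 21.8 and 20.3), Cltc, the clathrin heavy chain (-3.35), and Rab11b, a recycling endosome GTPase (-3.33). Under the centring by exon share 4 rose and 7 fell, where 4228 of 12375 genes rose and 3008 fell.

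Among 10 transcription factors that act on the Aqp2 gene, 2 rose and 1 fell in ADPKD, where 14.2% of all genes rose and 12.5% fell. Elf3, an epithelial ETS factor, rose by 1.56 and Crem, a cAMP-responsive factor, fell by 0.61. After treatment 1 rose and 6 fell, where 27.9% of all genes rose and 43.0% fell. Nfat5, the factor of the response to hypertonic stress, went from 36.1 and 40.1 FPKM in ADPKD to 0.369 and 0.219 (-4.92), Gata2 fell by 2.89 and the collecting duct factor Tfcp2l1 rose by 2.13. Centred by exon share, 3 rose and 2 fell, where 4228 of 12375 genes rose and 3008 fell. Of 12 receptors that modulate vasopressin action 8 were tested. The angiotensin receptor gene Agtr1a fell in ADPKD (-2.65), the 1 call there. After treatment 2 of these receptors rose and 4 fell, near the shares of all genes. Ednrb, the endothelin B receptor that inhibits water uptake, was at -3.79, the prostaglandin E2 receptor Ptger4 at -2.13 and the purinergic receptor P2ry2 at -1.52.

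Of 6 genes for urea transport and osmolytes, 2 rose and 1 fell in ADPKD and 3 rose and 1 fell after treatment. Slc6a12, counted among these, passed the expression filter only through the ADPKD libraries. That favoured its calls, higher in ADPKD and lower after treatment. Over all genes 14.2% rose and 12.5% fell in ADPKD, and 27.9% rose and 43.0% fell after treatment. Slc14a1, encoding the urea transporter UT-B, stood at 1.15 and 0.817 FPKM in WT, 5.09 and 3.33 in ADPKD, and 6.15 and 5.64 after treatment, rising by 1.38 in ADPKD. Slc5a3, which takes up the osmolyte inositol, rose by 2.32 after treatment, and the taurine transporter Slc6a6 fell by 0.62 in ADPKD and rose by 0.66 after treatment.

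Genes with the profile most like that of each abundant member were found by the root mean square difference of centred log2(FPKM + 1) over the 6 libraries, among 7630 genes. For Aqp2 these were Tmem150c (0.109), Scnn1g (0.121), the gamma subunit of the epithelial sodium channel, and Ndufaf3 (0.151). For Aqp3 they were Rhcg (0.149), an ammonia transporter of the distal nephron, Scnn1g (0.171) and Mcoln3 (0.254). For Aqp1 they were Fxyd2 (0.0835), the gamma subunit of the sodium pump, Ccdc107 (0.106) and Bckdha (0.110). Scnn1g stood at 46.5 and 57.6 FPKM in WT, 53.5 and 19.6 in ADPKD, and 118 and 125 after treatment, so ADPKD replicate 2 was lowest and the treated libraries highest, as for Aqp2 and Aqp3.

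Other cells were also read in these preparations. All 7 macrophage markers rose in ADPKD, with summed FPKM of 64.8 to 65.6 in WT, 482 to 577 in ADPKD and 1056 to 1108 after treatment, where 3 rose and 4 fell. Ptprc, counted among these, passed the expression filter only through the ADPKD libraries. That favoured its calls, higher in ADPKD and lower after treatment. Of 8 endothelial markers 7 fell and 1 rose in ADPKD and 5 fell after treatment. Of 6 markers of the thick limb and distal convoluted tubule 1 rose and 3 fell in ADPKD, and 2 rose and 2 fell after treatment, with a summed FPKM of 489 to 1261 in WT, 201 to 608 in ADPKD and 187 to 189 after treatment. Calls over all genes were 14.2% higher and 12.5% lower in ADPKD, and 27.9% higher and 43.0% lower after treatment. What part these other cells had in the members' values was not tested.

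Across scalings, the fall of Aqp4 and the rise of Aqp6 after treatment were called under all 5. Aqp1 and Aqp3 were called under the 4 without the centring by exon share, Aqp2 was called under 3 (0.73 after quantile normalization, limma adjusted p = 0.195), and Avpr1a was called under 3. The median of all tested genes after treatment was -0.36 as deposited, -0.56 with a common FPKM sum, -0.12 with median-of-ratios factors, 0.10 after quantile normalization and 0.16 centred by exon share. Of all calls after treatment 39.3% were higher as deposited, 53.9% after quantile normalization and 58.4% centred by exon share, and against WT these shares were 40.8%, 52.9% and 57.3%. In ADPKD against WT, Aqp4, Aqp6 and Avpr1a were called under all 5 scalings.

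**Figure D5:**
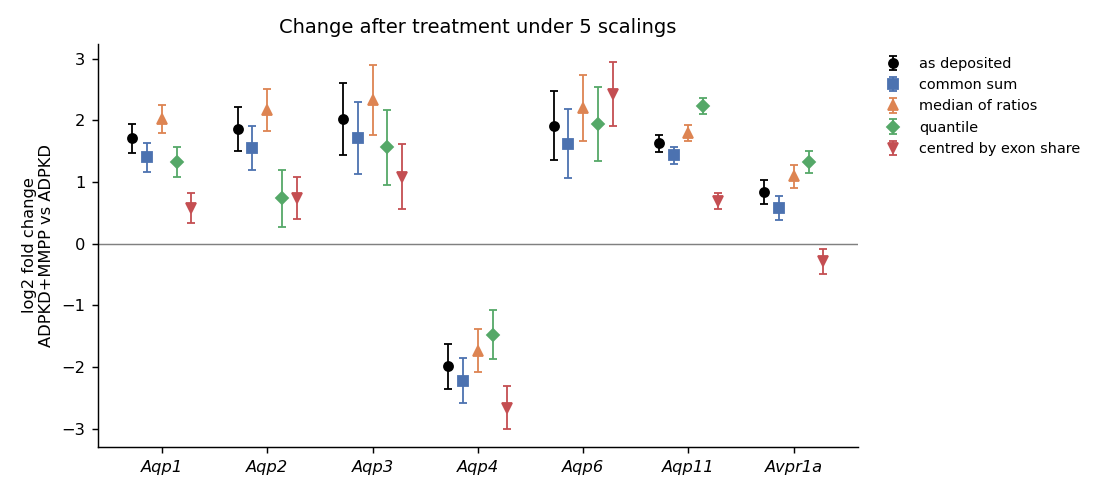
Log2 fold change after treatment (ADPKD+MMPP against ADPKD) of the 7 tested genes under 5 scalings, with standard errors. Aqp4 is below 0 and Aqp1, Aqp2, Aqp3, Aqp6 and Aqp11 above 0 in all 5, while Avpr1a is above 0 in 4 and at -0.29 when centred by exon share.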

How the data were processed

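RNA was oligo dT selected and sequenced; the labels name DBA-positive kidney cells as its source and, in another sentence, whole kidney. Per the labels and the submitters' processing notes, the authors aligned reads to mm10 with HISAT2 2.1.0, counted them with featureCounts 1.6.0 and deposited FPKM per gene symbol; the annotation, the strand setting and the FPKM formula are not given in the sources used here. Replicates were not pooled. FPKM values are not counts, so log2(FPKM + 1) was fitted for all 6 libraries with limma 3.58.1 in R 4.3.3 (1 factor for group, empirical Bayes with trend), over the 14862 genes with at least 1 FPKM in at least 2 libraries, with Benjamini-Hochberg adjustment over all of them. Calls used the study's thresholds, a fold change of 1.5 and P of 0.05. The scripts were tested on simulated data. GENCODE vM21 gave exon lengths, transcripts and positions for 53186 of 55367 symbols. FPKM times exon length was a whole multiple of 1 unit, within 0.1 read, for 98.6% to 99.1% of low values, which gave each library's assigned reads (10910735 to 33075512). Members and gene lists were chosen with earlier results of these data known. Named genes were all members, of each other list at most the 3 largest called changes per comparison, defining markers, and the 3 genes of most similar profile; other list genes with values (Lrp2, Slc34a1, Pdzk1, Slc4a9, Rhcg, Scnn1g, Aqp7) were named as markers, neighbours or the highest value, after their values were seen. Slc6a12, Ptprc and Cubn were named because they passed the expression filter only with a single group. Alternatives were the pseudocount, the filter, 4 other scalings, the trend, fitting the compared groups alone, other call thresholds, a replicate block and leaving out each library. Leaving out a library leaves its group with 1, which the fit assumes to vary like the other groups. Sequences came from RefSeq (GRCm38.p6).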

Additional observations from a re-analysis of the deposited data

How the results depend on the processing

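Of the counts of members called, 102 values under alternatives stayed within 1.5 times the reported count, 6 were smaller and 6 larger. For ADPKD against WT, the 1 member called higher became 0 with adjusted p in place of P, and leaving out 1 library gave 0 to 1 higher (0 without WT replicate 1 or 2) and 1 to 5 lower (1 without WT replicate 1). A group left with 1 library is assumed to vary like the others, so these calls rest on the spread of the other groups. Without ADPKD replicate 1 there were 5 lower, as Aqp1 (-0.64), Aqp2 (-1.15) and Aqp3 (-1.75) then passed; without ADPKD replicate 2 these were -0.15, -0.11 and 0.17. After treatment, the 6 called higher became 2 when centred by exon share. For ADPKD+MMPP against WT, the 3 called higher became 1 under that centring, and the 0 called lower became 2 under it and 2 with a common FPKM sum (Aqp4 and Avpr1a in both), 1 with only the compared groups in the fit, and 0 to 1 with a library left out (1 without ADPKD replicate 1 or 2). Under the centring, the members still called higher were Aqp6 and Aqp11 after treatment and Aqp11 alone against WT. Aqp11 passed the expression filter only through the treated libraries, so its calls were bound to follow. Centring reversed Avpr1a after treatment (-0.29) and Aqp2 against WT (-0.035). Aqp2 against WT also missed the threshold without WT replicate 1 (0.99) or either treated library (1.22 and 1.24). Over all genes, centring lowered the calls of lower genes from 6391 to 3008 after treatment and from 6505 to 3324 against WT, over 12375 genes. The filter of 5 FPKM lowered them to 4009 and 4061, and from 1862 to 1173 in ADPKD, over 9136 genes. At a fold change of 2, the 2115 higher and 1862 lower in ADPKD became 1020 and 936. Replicate numbers are shared by the groups. Deviations of same-numbered libraries correlated at 0.13 (WT and ADPKD), -0.01 and 0.01. With 2 libraries a group this cannot exclude a pairing of small effect, so whether the numbers pair the samples is not settled. With a replicate block the members called were 1 higher and 2 lower in ADPKD and 6 higher and 1 lower after treatment. With 2 libraries a group the spread is poorly known, and low values of Avpr2 are limited by depth.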
